A study of Mus musculus with 23 samples.

Results

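Livers of mice with the genotype Ehhadh_ko were compared with livers of wt mice, both given saline, by RNA sequencing. The comparison takes every sample labelled saline, which is 12 of the 23 libraries of the series: 5 from Ehhadh_ko mice (KO, aged 31 to 44 weeks) and 7 from wt mice (WT, aged 29 to 45 weeks). All mice have the strain label B6/129. The other 11 libraries, 6 WT and 5 KO, come from mice treated with L-AC, an agent that the labels give only by this abbreviation. They entered the fit for its estimate of spread and are quoted beside a saline result where useful. The labels do not say how the Ehhadh allele was disrupted, in which cells, or whether each library is a separate animal, so the p-values measure the spread between these samples. The question put by the design is what the loss of Ehhadh changes in liver in the absence of L-AC.

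Ehhadh encodes the peroxisomal L-bifunctional protein, which carries an enoyl-CoA hydratase and a 3-hydroxyacyl-CoA dehydrogenase activity. Peroxisomes shorten very long-chain, branched and dicarboxylic fatty acids by beta-oxidation: an acyl-CoA oxidase acts before the bifunctional protein, and a thiolase splits off acetyl-CoA after it. Another bifunctional protein, encoded by Hsd17b4, acts on the opposite stereoisomer. Dicarboxylic acids are formed by omega-oxidation, in which Cyp4a enzymes oxidise the far end of the chain. Many of these genes, Ehhadh included, are targets of the fatty acid receptor PPARA in hepatocytes. The acetyl-CoA released can enter other pathways, among them cholesterol synthesis, whose enzymes are switched on together by the transcription factor SREBP2.

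The 7 WT libraries held 30352749 to 47524125 counted reads and the 5 KO libraries 24656392 to 48095959. An exact two-sided permutation test found no difference between the groups in totals (p = 0.789) or in age (p = 0.957). The 792 splits of 12 libraries allow a smallest p of 0.00253. The hepatocyte markers, among them Alb and Apoa1, were all expressed, and the 10 genes together took 70730 to 81410 CPM, the counts scaled to a common library size, in WT and 75810 to 84720 CPM in KO. WT replicate 1 stood apart from the rest. On the main axis of a principal component analysis, with 21.6% of the variance, it lay at -60.12, and the other 11 libraries lay between -9.621 and 17.53. In it 358 genes were more than 2-fold from the mean of the other WT libraries, against 35 to 126 genes in each other library measured in the same way within its group. Its Igfbp1, a gene induced by fasting and low insulin, stood at 827.9 CPM against 93.47 to 268.1 CPM in the other WT libraries, and Eif4ebp3, a repressor of translation, at 136.3 against 11.26 to 22.05 CPM. Its Car3, a carbonic anhydrase, was at 232.8 CPM against 739.3 to 2385. Values without it are given beside the results that it moves most. KO replicate 1 had 939.3 CPM of Saa1 and 485.4 CPM of Saa2, acute phase proteins, against at most 87.93 and 33.88 CPM in the other KO libraries.

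Of 14196 genes tested, 2 passed at an adjusted p under 0.05, which is 0.0141% of them, or 0.00704% in each direction: Ehhadh was lower in KO and Anxa13 was higher. Ehhadh (chromosome 16, 21761285 to 21787834 on mm10, minus strand) stood at 910, 884, 755, 1104, 755, 635 and 1635 CPM in WT replicates 1 to 7. The KO replicates 1 to 5 held 132, 127, 253, 106 and 90.9 CPM. The groups did not overlap, and KO replicate 3 was the highest of its group. KO livers kept 14.8% of the WT level by the fit, a log2 fold change of -2.75 (SE 0.25, 95% interval -3.27 to -2.23, adjusted p = 1.94e-06 by edgeR's quasi-likelihood test). Without WT replicate 1 the value was -2.76 (edgeR, adjusted p = 5.61e-06). The counts sum all exons of the gene, so they do not show which part of the transcript the remaining reads cover. Under L-AC, in other mice, the same comparison gave -2.98.

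Anxa13 (chromosome 15, 58341464 to 58389274) encodes annexin A13, a calcium-dependent membrane-binding protein best known from the epithelium of intestine and kidney. Its level was low in every library: 1.38, 1.22, 1.80, 1.10, 1.59, 0.974 and 1.94 CPM in WT and 4.12, 8.55, 5.11, 8.53 and 6.53 CPM in KO. The lowest KO library was above the highest WT library. The log2 fold change was 2.19 (SE 0.29, 95% interval 1.597 to 2.789, adjusted p = 0.00073 by edgeR), and 2.18 without WT replicate 1 (edgeR, adjusted p = 0.00305). It was 2.17 under L-AC, and the difference between the treatments did not pass (interaction adjusted p = 0.9999 by edgeR). Of 10 further annexins tested, 0 were called, 4 had higher and 6 lower values, with a median log2 fold change of -0.03. Anxa8 had the lowest unadjusted p among them, at 0.0229, in the opposite direction (-1.10). Of 6 markers of intestinal epithelium 3 were expressed highly enough to test, and their median log2 fold change was 0.02 with every 95% interval inside 1.5-fold. The 6 markers summed to 209.6 to 279.8 CPM in WT and 214.3 to 247 CPM in KO. That is far above the level of Anxa13, so the 3 tested markers could not show a small share of intestine. The intestinal transcription factor Cdx2 had no read in any of the 12 libraries. The 5 kidney tubule markers summed to at most 0.208 CPM in WT and 0.545 CPM in KO. Whether other tissue contributed to the Anxa13 reads was not tested. In bulk liver RNA, fewer cells of a type and less RNA per cell cannot be told apart.

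**Figure D1:**
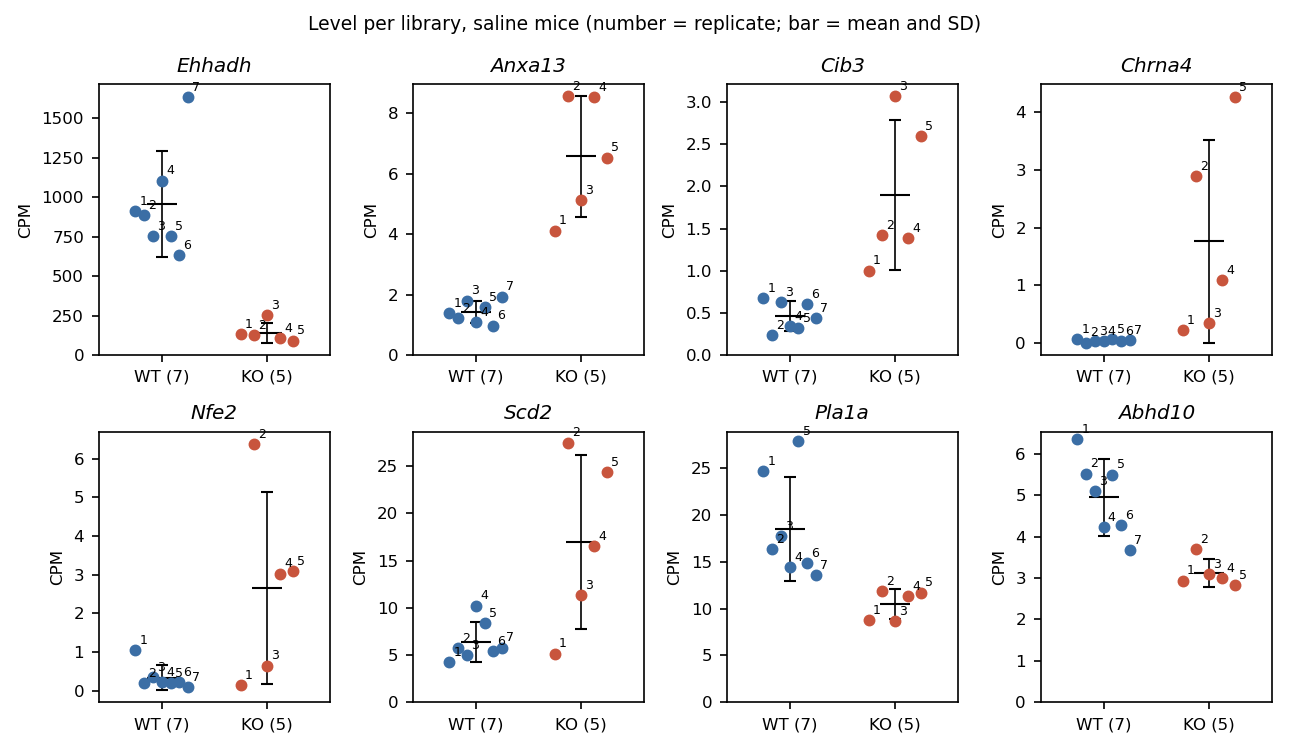
CPM (vertical axis, from 0) of 8 genes in each saline library, WT in blue (7) and KO in red (5), with replicate numbers at the points and the mean and SD as bars. Ehhadh, Anxa13, Cib3, Chrna4 and Pla1a have no overlap between the groups, Nfe2 and Scd2 spread widely among KO libraries, and Abhd10 overlaps by a single pair of libraries.

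Chrna4, which encodes the alpha-4 subunit of nicotinic acetylcholine receptors, was near silent in WT liver and variably present in KO liver. It did not enter the main test, whose filter asks for enough reads in as many libraries as the smallest group holds, here 5. Only KO replicates 2 to 5 had enough. The WT libraries held 2, 0, 1, 1, 2, 1 and 2 reads, and the KO libraries 6, 69, 13, 40 and 199 reads, or 0.215, 2.89, 0.338, 1.09 and 4.27 CPM. The 11 L-AC libraries of both genotypes had at most 6 reads each, the count of the lowest KO saline library. In a fit of all 19861 genes with a read, Chrna4 was called (adjusted p = 0.0003 by edgeR), 1 of 3 genes called there (0.0151%), and its fitted log2 fold change of 5.49 depends on the prior count. KO replicate 5, the highest for Chrna4, also had 37.67 CPM over the 5 pancreatic acinar markers, against 1.216 to 2.125 CPM in the other 11 libraries, and the highest sum of adipocyte markers, 10.24 against 0.1351 to 7.455 CPM. KO replicates 2 and 4 had 1.216 and 2.125 CPM of the acinar markers at 2.89 and 1.09 CPM of Chrna4. The part of other tissue in the Chrna4 reads was not tested.

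Several genes came close to the threshold. Cib3, of the calcium- and integrin-binding protein family (chromosome 8, 72204335 to 72212837), had 0.233 to 0.675 CPM in WT and 1.002, 1.43, 3.06, 1.39 and 2.60 CPM in KO. All KO libraries were above all WT libraries, and the log2 fold change was 2.05 (SE 0.39, adjusted p = 0.0901 by edgeR). It was 1.401 under L-AC (unadjusted p = 0.00131 by edgeR). Abhd10, a mitochondrial hydrolase (chromosome 16, 45729725 to 45742955), had 6.35, 5.51, 5.09, 4.24, 5.49, 4.27 and 3.67 CPM in WT and 2.94, 3.69, 3.09, 3.00 and 2.83 CPM in KO, with a log2 fold change of -0.67 (adjusted p = 0.0901 by edgeR). Pla1a, a secreted phospholipase that cleaves phosphatidylserine, was at 24.7, 16.3, 17.7, 14.4, 27.9, 14.8 and 13.6 CPM in WT and 8.77, 11.9, 8.70, 11.4 and 11.7 CPM in KO. Its groups did not overlap, and the log2 fold change was -0.82 under saline (adjusted p = 0.247 by edgeR) and -0.83 under L-AC. Cib3 passed by edgeR without KO replicate 1 (2.21, adjusted p = 0.0367) or without KO L-AC replicate 2 (2.05, adjusted p = 0.0135), and Abhd10 without WT replicate 7 (-0.74, adjusted p = 0.0195). Without WT replicate 1 the 3 values were 2.16, -0.60 and -0.73. DESeq2 called these 3 genes, with Ehhadh, Anxa13, Nfe2 and Bglap3, 7 genes in all (0.0493%), and limma-voom called 2.

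Nfe2, a transcription factor of erythroid cells and megakaryocytes, had no common level in KO liver. It was at 6.37, 3.02 and 3.09 CPM in KO replicates 2, 4 and 5, and at 0.143 and 0.649 CPM in KO replicates 1 and 3. WT libraries held 0.104 to 0.347 CPM apart from WT replicate 1, at 1.05 CPM. The log2 fold change was 3.00 (SE 0.60, adjusted p = 0.127 by edgeR). Without WT replicate 1 it was 3.59 and passed (edgeR, adjusted p = 0.0226), as it did without KO replicate 1 (3.30, adjusted p = 0.00623). The 5 erythroid markers, haemoglobin genes and Alas2, summed to 334.8 to 709.3 CPM in WT and to 568.6, 396.1, 562.8, 765.0 and 276.1 CPM in KO replicates 1 to 5. KO replicates 4 and 5, with the highest and the lowest sum, were both among the libraries with high Nfe2. The cell source of the Nfe2 reads was not tested, and no megakaryocyte markers were listed. Scd2, a desaturase that makes monounsaturated fatty acids, followed a similar order, at 5.15, 27.5, 11.4, 16.5 and 24.3 CPM in KO against 4.29 to 10.2 CPM in WT. Its log2 fold change was 1.41 (SE 0.34, adjusted p = 0.627 by edgeR) under saline and 0.06 under L-AC. The same 3 KO libraries, replicates 2, 4 and 5, were highest for Nfe2, Scd2 and Chrna4.

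The remaining genes named by their rank did not pass. Among those with higher values in KO were Cd47, which restrains uptake of cells by macrophages (0.29), Rdh11, a retinol dehydrogenase (0.53), Mtmr11 (0.68), Nav1 (0.49) and Rpph1, the RNA of ribonuclease P (1.43), each as a log2 fold change, with unadjusted p from 0.00343 (Rpph1) to 0.00599 (Nav1) by edgeR. Among those with lower values were Mina, an oxygenase of the nucleolus (-0.42), and Crybg3 (-0.70), whose exons overlap by 801 bases on opposite strands, so their counts are shared in part. Lad1 (-1.25), Cgref1 (-1.35) and Cntnap1 (-1.32) had their highest WT value in WT replicate 1, where Lad1 stood at 26.5 CPM against 4.89 to 7.25 CPM in the other WT libraries. Without it the 3 values were -0.67, -0.94 and -0.66. Tmem104 (-0.30) and Sec13, a component of the COPII coat (-0.22), were in this group too. WT replicate 1 was also the highest WT library for Rdh11, Mina and Sec13, which were at 0.67, -0.31 and -0.16 without it. In all, 264 genes (1.86%) had an unadjusted p under 0.05 by edgeR, 120 higher (0.845%) and 144 lower (1.01%) in KO. The number was 477 (3.33%) without KO replicate 2 and 452 (3.2%) without WT replicate 7. These numbers are below the 710 genes that 5% of the 14196 tested would give.

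**Figure D2:**
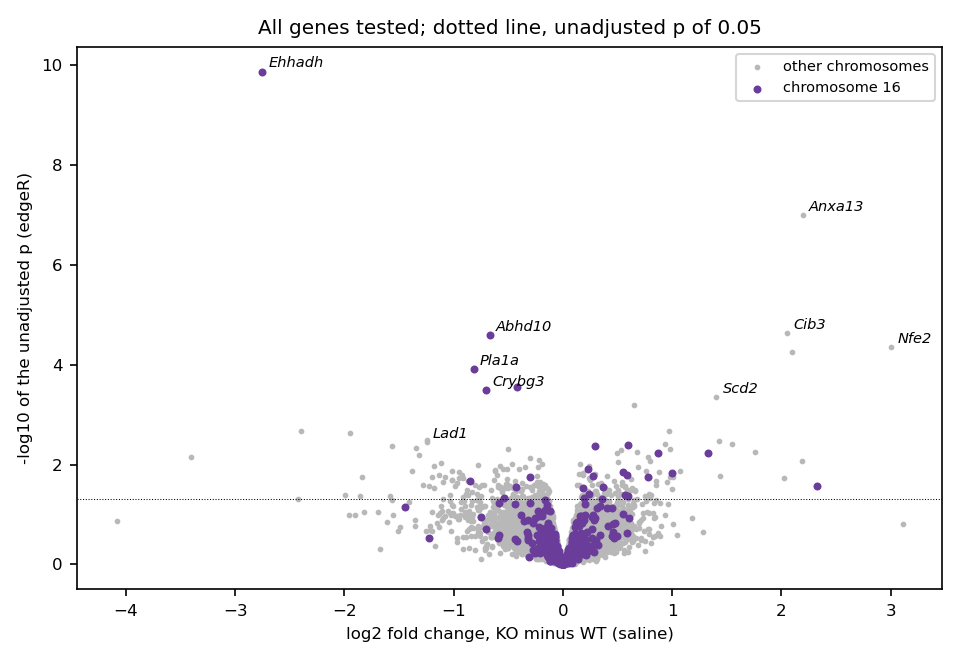
Log2 fold change of KO against WT under saline (horizontal axis) and -log10 of the unadjusted p by edgeR (vertical axis) for each of the 14196 genes tested, with genes of chromosome 16 in purple. Ehhadh and Anxa13 lie far above the rest, and 4 of the next named genes, Abhd10, Pla1a, Mina (the unnamed purple point beside Crybg3) and Crybg3, lie on chromosome 16.

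Most of the transcriptome was measured closely enough to limit what could have gone unseen. The 95% interval of the log2 fold change lay within 1.5-fold either way for 9951 genes (70.1%) and within 2-fold for 12775 genes. The median log2 fold change over all genes was -0.00322, with quartiles at -0.08 and 0.07. In 9 genes all 5 KO libraries lay above all 7 WT libraries (0.0634%), and in 11 genes all lay below (0.0775%). A random order of the 12 libraries would separate the groups of a gene, in either direction, with a probability of 0.00253. The shares found lie below that even together, so a lack of overlap in an uncalled gene is only a description. Of these 20 genes, 8 are on chromosome 16, Ehhadh included, while that chromosome holds 3.11% of the other genes tested.

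A larger share of the genes of chromosome 16 than of other chromosomes had a low unadjusted p, though none but Ehhadh was called. Of 441 genes of the chromosome other than Ehhadh, 26 had an unadjusted p under 0.05 by edgeR (5.90%), against 237 of 13754 genes on other chromosomes (1.72%). These genes were not the nearest neighbours. Within 10 Mb of Ehhadh there were 3 of 145 (2.07%), from 10 to 20 Mb 7 of 138 (5.07%), from 20 to 40 Mb 14 of 58 (24.1%), and beyond 40 Mb 2 of 100. Only the stretch from 20 to 40 Mb had a share well above 5%, and the chromosome as a whole was near it. The 14 genes ran from Cd200r1 at 23.01 Mb to Arl6 at 37.85 Mb, with 9 higher and 5 lower in KO. All genes tested at this distance lie on the side of higher coordinates, since on the other side they reach only to -18.06 Mb (Mefv). Neighbouring genes can share reads where they overlap, as Mina and Crybg3 do, and they are not independent of each other.

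In 6 of the 14 genes the groups did not overlap, against 20 of all 14196 genes tested. The 14 genes were picked by their p in these same libraries, so this is not separate support. Tbc1d23, a protein of endosome-to-Golgi traffic, was at 13.1 to 15.9 CPM in WT and 17.1, 16.7, 16.5, 16.9 and 17.0 CPM in KO, a narrow shift (log2 fold change 0.23). Ift57, a subunit of the intraflagellar transport complex of cilia, was at 1.22, 3.00, 1.99, 2.21, 0.434, 1.69 and 2.31 CPM in WT and 3.47, 4.03, 3.32, 3.73 and 3.91 CPM in KO (0.9996). Pvrl3, a nectin of cell adhesion, was at 34.0 to 49.1 CPM in WT and 49.3 to 57.3 CPM in KO (0.27). Filip1l was at 1.63 to 3.30 CPM in WT and 3.38 to 4.23 CPM in KO (0.55). Mina and Crybg3 were the other two, both lower in KO. Under L-AC, in other mice, 12 of the 14 genes had the same sign, 8 of the 58 genes of the stretch were under 0.05 (13.8%, against 4.43% of genes on other chromosomes and 4.53% of all genes), and 3 genes were so in both treatments: Slc35a5, Ift57 and Crybg3. Over the whole chromosome, 22 of the 26 genes kept their sign under L-AC (84.6%), compared with 149 of 237 on other chromosomes (62.9%) and 51.6% of all genes. Without WT replicate 1, 12 genes of the 58 were under 0.05, 11 of them the same, against 1.55% elsewhere. Without KO replicate 2 the stretch had 13 of 58 (22.4%) against 3.2% on other chromosomes, and without WT replicate 7 13 of 57 (22.8%) against 3.06%. Mice of mixed B6/129 background can differ in the alleles that lie on the chromosome of a targeted gene; whether these mice do was not tested.

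**Figure D3:**
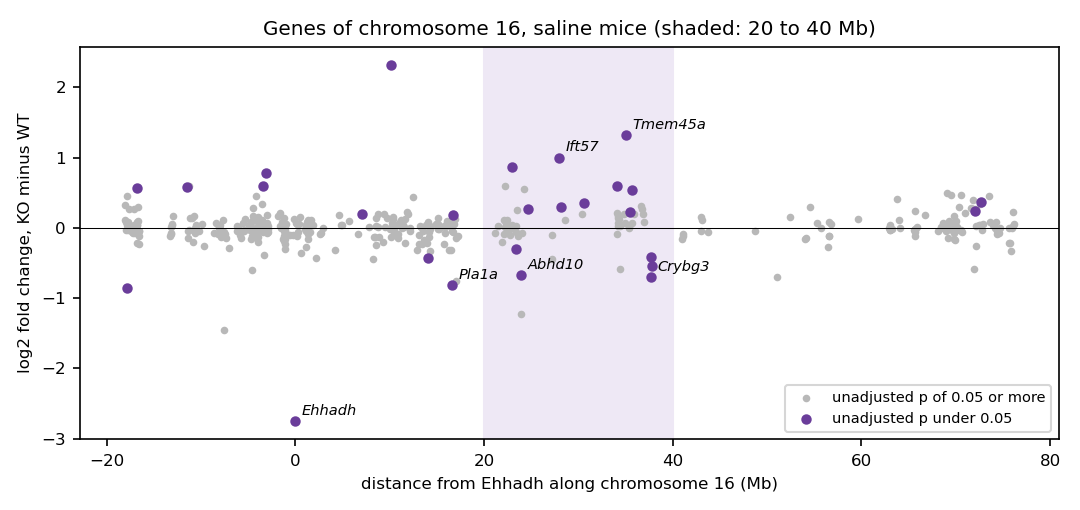
Log2 fold change of KO against WT under saline (vertical axis) for the genes of chromosome 16 by their distance from Ehhadh in Mb (horizontal axis), purple where the unadjusted p was under 0.05. In the shaded stretch from 20 to 40 Mb 14 of 58 genes are purple, compared with 3 of 145 within 10 Mb of Ehhadh.

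Genes of cholesterol synthesis had mostly higher values in KO liver, but the 2 groups overlapped and 0 of 21 members were called. The early enzymes run from acetoacetyl-CoA to squalene epoxide. All 11 had a positive log2 fold change, with a median of 0.45, where 48.8% of all genes were positive. Of these, 2 were under 0.05 by edgeR, unadjusted, among them Pmvk, phosphomevalonate kinase (0.75, unadjusted p = 0.0435). Pmvk stood at 38.8, 14.1, 21.8, 18.7, 12.1, 15.6 and 16.1 CPM in WT and 14.6, 53.1, 28.7, 45.2 and 23.3 CPM in KO. KO replicate 2 was the highest, and WT replicate 1 was above 3 of the KO libraries. Pmvk was at 1.01 without WT replicate 1 (unadjusted p = 0.00693 by edgeR). Acat2, which makes acetoacetyl-CoA, was at 0.03. Of the 10 late enzymes, which turn squalene epoxide into cholesterol, 9 had a positive value, with a median of 0.25. Lss, lanosterol synthase, had the lowest unadjusted p (0.76, unadjusted p = 0.0135 by edgeR), followed by Nsdhl, a sterol dehydrogenase (0.59, unadjusted p = 0.0322), and Cyp51, lanosterol demethylase (0.59, unadjusted p = 0.0443). These 3 were at 1.09, 0.79 and 0.87 without WT replicate 1, their highest WT library. Exons of Fdft1, squalene synthase, overlap those of Ctsb on the opposite strand by 774 bases, so its value (0.34) can include reads of Ctsb.

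The libraries of each group spread widely. The mean log2 CPM of the 11 early genes was 6.12, 4.43, 5.35, 5.28, 4.51, 4.73 and 4.50 in WT and 4.62, 6.06, 5.398, 6.02 and 5.39 in KO. WT replicate 1 was thus the highest of all 12 libraries and KO replicate 1 lay within the lower WT libraries. Sqle, squalene epoxidase, spanned 12.3 to 114 CPM within WT alone, with WT replicate 1 at the top and the next WT library at 45.1 CPM. KO libraries held 19.5, 70.0, 45.5, 76.7 and 34.1 CPM of Sqle. Without WT replicate 1 the median of the early genes was 0.92, and 9 of 11 were under 0.05, unadjusted, in place of 2. With all WT libraries kept, the median of the early genes was 0.27 without KO replicate 2 and 0.22 without KO replicate 4. With WT replicate 1 left out, the late genes had a median of 0.45, all 10 were positive, and 4 were under 0.05. None passed after adjustment there either: Lss was at an adjusted p of 0.139 by edgeR. In the L-AC mice the medians were 0.49 for the early and 0.28 for the late genes. Tm7sf2, a sterol reductase, was the exception in its narrow range: 86.3 to 102.9 CPM in WT and 106.6 to 123.8 CPM in KO, with no overlap and a log2 fold change of 0.24.

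**Figure D4:**
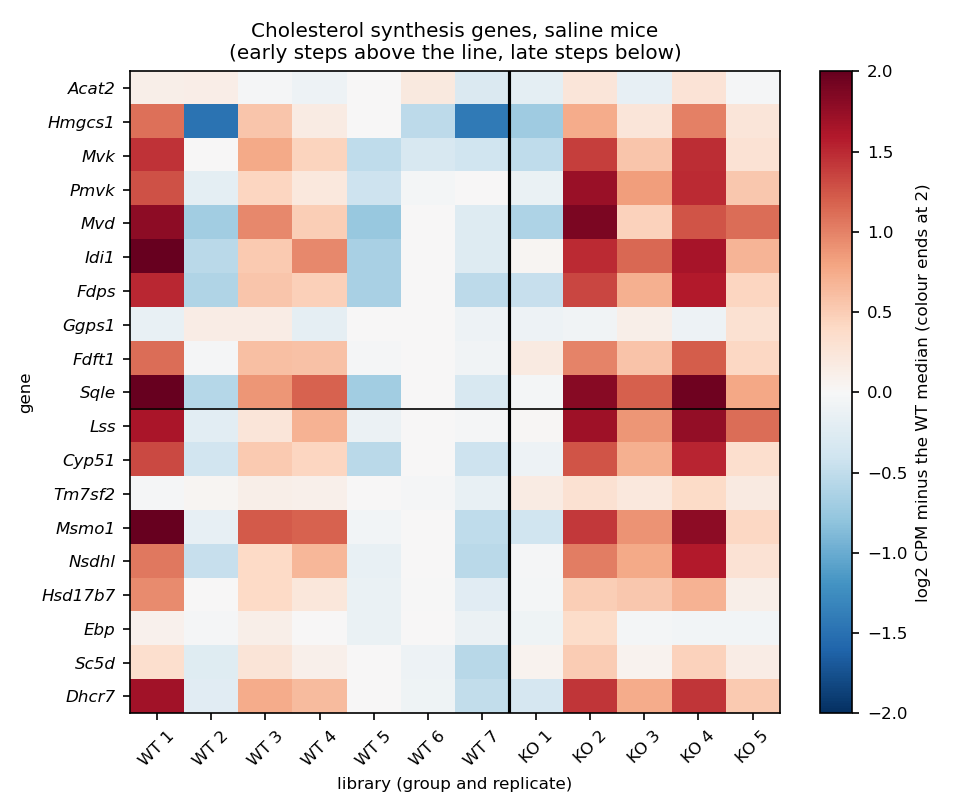
Log2 CPM minus the median of the 7 WT libraries (colour) for 19 of the 21 cholesterol synthesis genes (rows) in each saline library (columns). WT replicate 1 and KO replicates 2 and 4 are high for most of the genes, and KO replicate 1 resembles the lower WT libraries.

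Most control genes of the pathway did not have this sign. Of 9 genes of SREBP2 control and sterol uptake 3 had a positive value, with a median of -0.03 and 0 called. Srebf2, the gene of SREBP2 itself, was at 48.6 to 86.6 and 45.1 to 75.9 CPM in WT and KO (-0.03), and Insig1, which retains SREBP2 in the endoplasmic reticulum, at 113.2 to 225.2 and 158.9 to 245.9 CPM (0.10). Under L-AC, Insig1 was at 0.62, and the difference between treatments had an unadjusted p of 0.0497 (adjusted p = 0.9999 by edgeR). Among the genes that use cholesterol for bile acids, Cyp7a1, the rate-limiting enzyme, was at 11.8 to 102.2 CPM in WT and 29.5 to 79.7 CPM in KO (0.21, 95% interval -0.77 to 1.18). Cyp39a1, an oxysterol hydroxylase, was at 13.8, 12.2, 16.3, 12.8 and 7.30 CPM in KO against 1.94 to 7.26 CPM in WT, apart from WT replicate 4 at 16.5 CPM (1.005, unadjusted p = 0.0176 by edgeR). Cyp7b1, the other oxysterol hydroxylase of the list, was at -0.76, and at -0.37 without WT replicate 1, which had 680.1 CPM against 122.4 to 315.6 CPM in the other WT libraries.

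Since most of these genes were high in the same libraries, the 250 bases before the start of 4 of them are shown, from RefSeq on GRCm38.p6. Capitals mark matches to CCAAT, the box bound by the factor NF-Y, which works with SREBP2, read on either strand (ATTGG on the strand shown), and to TCACNCCAC, a form of the sterol regulatory element. Hmgcs1 and Lss lie at chr13:119690101-119690350 and chr10:76531355-76531604 on the plus strand, Nsdhl at chrX:72918271-72918520 on the plus strand and Cyp51 at chr5:4104698-4104947 on the minus strand.
Hmgcs1: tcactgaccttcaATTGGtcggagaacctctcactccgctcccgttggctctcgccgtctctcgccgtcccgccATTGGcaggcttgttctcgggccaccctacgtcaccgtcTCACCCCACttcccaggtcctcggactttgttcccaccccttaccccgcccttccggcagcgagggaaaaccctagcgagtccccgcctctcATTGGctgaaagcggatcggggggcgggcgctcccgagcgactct
Lss: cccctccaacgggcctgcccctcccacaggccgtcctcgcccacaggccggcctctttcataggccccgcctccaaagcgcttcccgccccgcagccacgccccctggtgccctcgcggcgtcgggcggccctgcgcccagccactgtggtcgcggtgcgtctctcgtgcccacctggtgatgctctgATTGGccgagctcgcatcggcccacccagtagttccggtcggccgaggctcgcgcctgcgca
Nsdhl: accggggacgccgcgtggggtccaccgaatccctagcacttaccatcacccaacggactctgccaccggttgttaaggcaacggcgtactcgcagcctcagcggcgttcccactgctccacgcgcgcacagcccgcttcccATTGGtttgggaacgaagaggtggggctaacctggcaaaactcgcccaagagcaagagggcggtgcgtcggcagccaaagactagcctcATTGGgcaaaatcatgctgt
Cyp51: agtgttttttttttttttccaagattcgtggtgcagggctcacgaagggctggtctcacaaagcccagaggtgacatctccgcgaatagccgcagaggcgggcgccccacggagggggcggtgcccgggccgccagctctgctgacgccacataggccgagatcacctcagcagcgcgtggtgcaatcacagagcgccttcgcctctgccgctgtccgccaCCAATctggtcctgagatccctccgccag

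RefSeq windows were at hand for 16 of the 21 genes, and 15 of these held CCAAT on either strand, against 37.5% of the 27025 genes of the table. Hmgcs1 holds 3 matches and Nsdhl 2. TCACNCCAC occurred in 1 of the 16, Hmgcs1, against 1.22% of all genes. The matches of the 2 motifs do not overlap in the windows shown. A match describes letters and is no evidence that a factor binds there. Hmgcs1, whose window holds both motifs, was at 449.5, 75.8, 307.4, 235.1, 210.4, 147.0 and 79.3 CPM in WT and 129.0, 350.6, 247.7, 422.0 and 248.8 CPM in KO, so the groups overlapped (log2 fold change 0.38, 95% interval -0.30 to 1.06, and 0.67 without WT replicate 1).

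The remaining enzymes of peroxisomal beta-oxidation had small differences between KO and WT. Of 14 genes 8 had a positive and 6 a negative log2 fold change, from -0.16 (Scp2) to 0.19 (Acaa1b), with a median of 0.01. None was under 0.05 even unadjusted, and 0 were called by edgeR, DESeq2 or limma-voom. All 14 had a 95% interval within 2-fold, and 12 within 1.5-fold. Hsd17b4, the other bifunctional protein, was at 625.2, 676, 629, 816, 747, 668 and 844 CPM in WT and 645, 687, 761, 677 and 692 CPM in KO (-0.05, interval -0.26 to 0.17). Scp2, the thiolase and sterol carrier, had the lowest unadjusted p of the list (0.0537 by edgeR), and every KO library, at 3776 to 4523 CPM, was below the WT median of 4571 CPM.

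Within each group, the library with the most Ehhadh reads also led for several other genes of fatty acid oxidation. WT replicate 7 and KO replicate 3 were the highest of their groups for Acaa1a, a peroxisomal thiolase, at 1892 CPM (other WT libraries 653 to 959) and 1576 CPM (other KO libraries 755 to 881). They were also the highest for its close relative Acaa1b, at 4095 and 3572 CPM, though reads may be split between such similar genes. The same 2 libraries led for Cyp4a14, at 5520 CPM among 523 to 5520 in WT and 4582 CPM among 2536 to 4582 in KO, and for Cyp4a10, at 3184 and 3114 CPM. Cyp4a14 thus ranged widely among WT livers, and its interval for KO against WT was wide (0.38, -0.38 to 1.13). The 15 omega-oxidation genes had a median log2 fold change of 0.01, with 8 positive and 0 called.

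Most members of 2 other lists of fat metabolism were measured tightly. All 19 genes of mitochondrial fatty acid oxidation had a 95% interval within 1.5-fold, with a median log2 fold change of -0.01. Cpt1a, which admits long-chain fatty acids to mitochondria, had the lowest value among them (-0.16), with 1071 CPM in WT replicate 1 against 568.3 to 793 CPM in the other WT libraries and 590 to 689 CPM in KO, and the value was -0.04 without that library. Of 23 genes of peroxisomal membrane transport and biogenesis, 22 had an interval within 1.5-fold, and Abcd3, the transporter of dicarboxylic and branched acyl groups, was at 0.01 (interval -0.22 to 0.23). Pex11g, a protein of peroxisome division, was the only member of that list under 0.05 (-0.28, unadjusted p = 0.028 by edgeR), at 33.8 to 51.9 CPM in WT and 29.4 to 40.9 CPM in KO. It was at -0.23 without WT replicate 1 (unadjusted p = 0.0688 by edgeR). The lists of peroxisomal oxidases and antioxidant enzymes (13 tested, median 0.00), acyl-CoA thioesterases (12, 0.02), ketone body synthesis (5, 0.05) and other PPARA targets (18, -0.02) held no member under 0.05. Intervals were wider in the last 3 of these lists: 7 of 12 thioesterases, 3 of 5 ketone body genes and 7 of 18 PPARA targets lay within 1.5-fold.

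**Figure D5:**
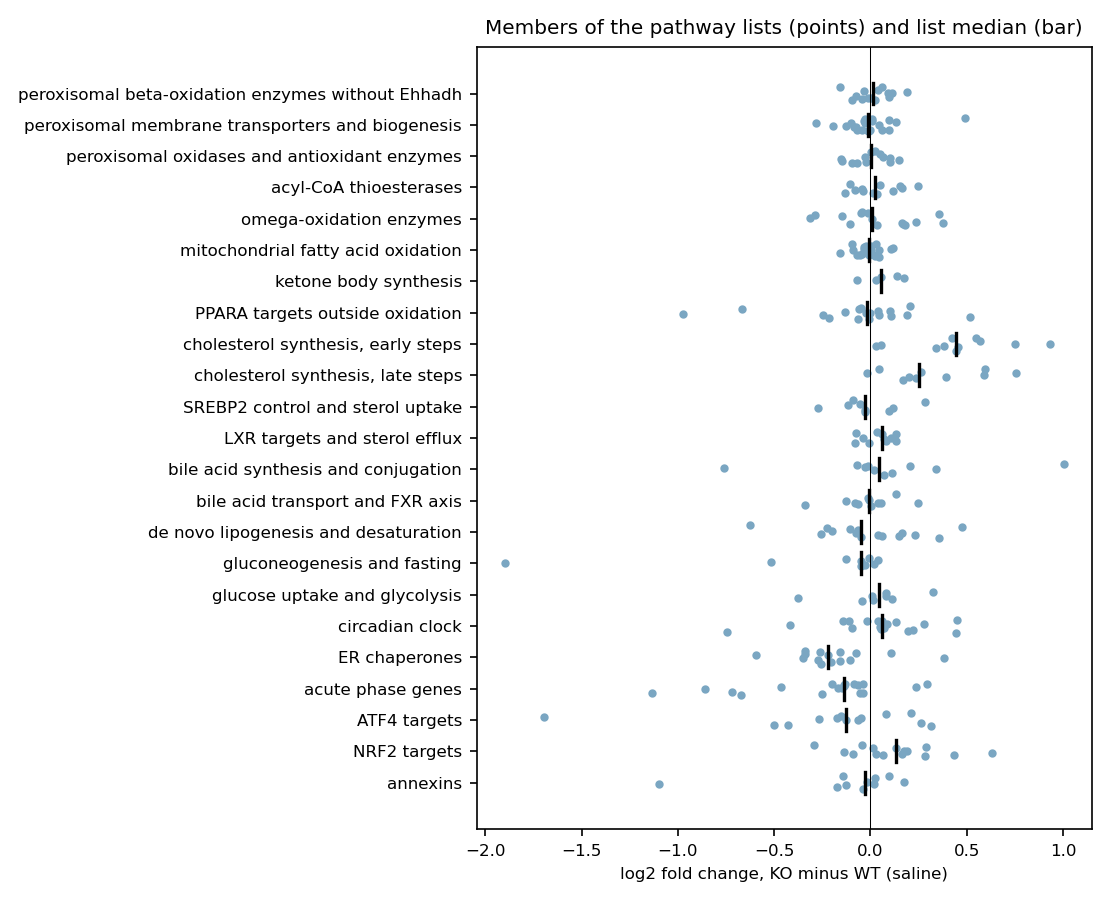
Log2 fold change of KO against WT under saline (horizontal axis) of the tested members (points) of each of 23 pathway lists (rows), with the median as a bar. The 2 cholesterol synthesis lists have the highest medians, 0.45 and 0.25, and the ER chaperones the lowest, -0.22, while the beta-oxidation lists lie close to 0.

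Over all 35 lists 358 genes were tested, 0 were called by edgeR, and 12 were under 0.05, unadjusted, 5 of them in cholesterol synthesis. These 12 are 3.35% of the list genes, where 1.86% of all genes were under 0.05 and 0.0141% were called. Ehhadh and Anxa13, the 2 genes called by edgeR and by limma-voom, were left out of the lists, so the 0 calls there follow from that choice. None of the others among the 7 genes called by DESeq2 is a list member. Of 15 ER chaperones 13 had a lower value in KO, with a median of -0.22 and none under 0.05, unadjusted, and the median ran from -0.41 (without KO replicate 5) to -0.13 (without KO replicate 2) as single libraries were left out. Pdia6, a disulfide isomerase, was at 155.3 to 285.6 CPM in WT and 117.7 to 207.2 CPM in KO (-0.34), and the groups overlapped. Of 19 acute phase genes 17 had a lower value (median -0.14), but without WT replicate 1 the count was 9 and the median 0.00. Orm1, a plasma glycoprotein, was at 273.9 to 769.8 CPM in WT, with WT replicate 1 at the top, and 223.3 to 501.1 CPM in KO (-0.47, and -0.29 without that library). Saa1 ranged from 107.5 to 859.6 CPM in WT and from 15.4 to 939.3 CPM in KO, where replicate 1 was the highest. The other KO libraries, at 15.42 to 87.93 CPM, lay below every WT library. The difference of Saa1 (-0.86, 95% interval -3.30 to 1.58) was not determined at this spread, and it was -2.84 without KO replicate 1. The 13 tested targets of ATF4, a stress-response factor, had a median of -0.13, which was 0.18 without WT replicate 1. Asns, asparagine synthetase, stood at 29.3 CPM in that library and at 0.104 to 1.48 CPM in the other WT libraries, and its log2 fold change turned from -1.69 to 1.13 when it was left out. Targets of NRF2, the factor of oxidative stress, had a median of 0.13 (11 of 15 positive, 0 under 0.05), and 0.02 without WT replicate 1. In the list of fatty acid synthesis and desaturation, 7 of 15 genes had a higher value in KO (median -0.05). Acacb, acetyl-CoA carboxylase 2, was the only member under 0.05 (-0.63, unadjusted p = 0.0135 by edgeR). It stood at 27.1 to 85.4 CPM in WT and 23.7 to 41.5 CPM in KO. Without WT replicate 1 it was at -0.45 (unadjusted p = 0.0455 by edgeR). In that fit Acaca (0.29, unadjusted p = 0.0162 by edgeR) and Acly (0.29, unadjusted p = 0.0395 by edgeR) were under 0.05 in the opposite direction.

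Markers of other liver cells gave no call. Of the 12 cell type lists, sinusoidal endothelial markers had 8 of 9 members with a higher value (median 0.14, or 0.08 without WT replicate 1), and Kupffer cell markers 4 of 7 (0.08). Of 8 lymphocyte markers 4 could be tested, 3 with a higher value, with a median of 0.63. Ms4a1, a B cell surface protein, was at 0.145 to 0.416 CPM in WT and 0.172 to 0.831 CPM in KO (0.80, unadjusted p = 0.0467 by edgeR, and 0.0768 without WT replicate 1). The 8 lymphocyte markers summed to 1.38 to 4.81 CPM in WT and 1.80 to 7.05 CPM in KO. Bile duct keratins were lower in value: Krt19 was at 0.647 to 1.83 CPM in WT and 0.322 to 0.519 CPM in KO, with no overlap (-0.95, unadjusted p = 0.123 by edgeR), and Krt7 at 0.458 to 1.10 and 0.252 to 0.490 CPM (-0.93, unadjusted p = 0.0162). The 5 cholangiocyte markers tested had a median of -0.35. Sox9 (-0.35) was the other lower member, and Spp1 (0.34) and Epcam (0.04) were higher in value. The 6 markers listed summed to 28.0 to 54.4 CPM in WT and 24.6 to 79.0 CPM in KO. Acta2, a marker of activated stellate cells and smooth muscle, was at 12.7 CPM in WT replicate 5 and at 0.414 to 4.83 CPM in the other WT libraries, against 0.753 to 1.80 CPM in KO (-1.59, unadjusted p = 0.0433 by edgeR). Without WT replicate 5 it was at -0.72 (unadjusted p = 0.274 by edgeR). Of the 8 stellate cell markers 6 had a higher value in KO, with a median of 0.05. The summed stellate cell markers were at 116.0 to 190.1 CPM in WT and 86.5 to 216.6 CPM in KO.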

How the data were processed

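Liver RNA was extracted with QIAzol and an RNeasy kit, selected by polyA capture and sequenced as single-end reads of 100 nucleotides on an Illumina HiSeq instrument, per the labels' protocols. The deposited files hold raw read counts per gene, which the authors made with featureCounts 1.4.4 from the exons of a UCSC annotation of mm10, per the file headers. Primary alignments were counted without regard to strand and for every gene they overlapped, per the file headers, so overlapping genes share reads. STAR 2.4.0 is named as the aligner in the submitters' processing notes.

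Groups came from the labels. Replicates were numbered in accession order, which pairs nothing, and none of 31 pairs of saline libraries within a group agreed within sampling noise (chi-square over degrees of freedom at least 45.5). Genes were filtered with filterByExpr (minimum count 10, minimum total 15) and scaled by TMM, and 1 mean per group was fitted over all 23 libraries with edgeR 4.0.16 in R 4.3.3 (quasi-likelihood). P-values are two-sided, with Benjamini-Hochberg adjustment over 14196 genes and a call under 0.05. SE is the log2 fold change divided by the square root of F. CPM use TMM-scaled totals. The code was tested on simulated data. Alternatives were limma-voom (limma 3.58.1), DESeq2 1.42.0, other filters and scaling, age as a covariate, the 12 saline libraries alone and each library left out.

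Named genes are Ehhadh, called genes, the 10 higher and 10 lower uncalled genes of lowest p with a mean of at least 1 CPM, calls of the other tools, members of the cholesterol and beta-oxidation lists and a few of each other list. Genes named for their place on chromosome 16, for not overlapping, or in a library that stood apart were chosen after their values were seen, as was Chrna4. The comparison, its 35 gene lists and the distance bins were chosen with earlier results of these data known. RefSeq promoter windows matched 16 of 21 cholesterol genes by symbol. Some genes that the rule for named genes takes are not reported here.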

Additional observations from a re-analysis of the deposited data

Results flagged for a closer look

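In 30 of 164 sets of values, each the 7 WT or the 5 KO saline libraries of a gene named above, a single library lay further from its nearest neighbour than a Dixon test at 95% allows. Chance gives about 1 in 20 for genes picked without regard to such libraries. Some of these genes were named because a library stood apart, so the count cannot be judged against that rate. In 17 of the 30 the library was WT replicate 1, which stood apart over the whole transcriptome, so these are not separate events.

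WT replicate 1 was the highest for 9 genes outside sterol synthesis: Asns (29.27 CPM, the next WT library at 1.485), Lad1 (26.5 CPM, next 7.246), Cntnap1 (28.19 CPM, next 9.476), Cgref1 (8.778 CPM, next 4.518), Nfe2 (1.047 CPM, next 0.3475), Cyp7b1 (680.1 CPM, next 315.6), Rdh11 (25.29 CPM, next 17.2), Mina (21.68 CPM, next 15.39) and Sec13 (52.87 CPM, next 43.48). It was also the highest for the sterol synthesis genes Pmvk (38.76 CPM, next 21.8), Idi1 (88.7 CPM, next 38.64), Fdps (137.5 CPM, next 70.54), Sqle (114 CPM, next 45.05), Lss (48.62 CPM, next 25.32), Cyp51 (191.4 CPM, next 110.2), Hsd17b7 (119.5 CPM, next 81.81) and Dhcr7 (72.59 CPM, next 37.97).

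In KO replicate 1, Saa1 (939.3 CPM, the next KO library at 87.93) and Saa2 (485.4 CPM, next 33.88) were high. KO replicate 3 was the highest KO library for Ehhadh itself (252.9 CPM, next 131.6), for Acaa1a (1576 CPM, next 881.2) and for Abcd3 (866.2 CPM, next 743.1). WT replicate 7 was the highest for Acaa1a (1892 CPM, next 959.2), Acaa1b (4095 CPM, next 2303) and Krt19 (1.832 CPM, next 0.8993). The other sets were Cyp39a1 in WT replicate 4 (16.48 CPM, next 7.259), Acta2 in WT replicate 5 (12.7 CPM, next 4.831), Ebp in KO replicate 2 (190.9 CPM, next 144.4), Insig1 in KO replicate 4 (245.9 CPM, next 182.4) and, as the lowest of its group, Krt19 in KO replicate 5 (0.322 CPM, next 0.4654).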

How the results depend on the processing

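Ehhadh and Anxa13 passed under each alternative run, with log2 fold changes from -3.07 to -2.57 and from 2.08 to 2.32 as single libraries were left out. DESeq2 called 7 genes in place of 2, and the count was 4 at an adjusted p under 0.10 and ranged from 2 to 5 as single libraries were left out (5 without KO saline replicate 1, 4 without KO L-AC replicate 2). Chrna4 entered the test in 6 of these fits, through its reads in KO saline libraries alone, and passed in each. Where an L-AC library was left out its saline counts were the same, so those passes are not separate results. Of all fits with a library left out, Cib3 passed in 2, Nfe2 in 2 and Abhd10 in 1. Genes whose KO libraries all lay above the WT libraries numbered 9 to 41 and those all below 14 to 42 as saline libraries were left out, since fewer libraries overlap less, with the highest counts without KO saline replicate 2. The median of cholangiocyte markers was 0.0375 with a filter of 1 CPM, which left fewer markers to test, and ran from -0.60 to -0.21 over the libraries left out. The medians of adipocyte markers (2 tested, 0.56) and pancreatic acinar markers (1 tested, 0.85) ran from -0.87 to 0.90 and from -0.064 to 1.04, and both were below 0 without KO saline replicate 5. Other list medians moved by less than the spread of list scores between replicates. No called value changed sign. Cyp39a1 and Krt19 had groups with a single distant library. Their log2 fold changes ran from 0.847 to 1.47 and from -1.02 to -0.662 as single libraries were left out, so neither changed sign. No paired analysis was possible because the labels carry no replicate numbers shared between the groups. A level of 1 CPM rests on about 24.7 to 48.1 reads a library, which limits genes such as Cib3 and Nfe2.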
